A study of Arabidopsis thaliana with 6 samples.

Results

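Class III peroxidases are secreted plant enzymes that carry a heme group and use hydrogen peroxide (H2O2) as their oxidant. In the cell wall they oxidise phenolic compounds, which joins monolignols into lignin and cross-links phenolic side chains of wall polymers and structural proteins. The same enzymes can also release reactive oxygen species into the wall space (the apoplast), so the family is known both for stiffening walls and for the oxidative burst of defence. Here 10 Arabidopsis thaliana loci of the family were followed, listed by locus and named PRX52, PRX71, PRX33, PRX34, PRX37, PRX64, PRX4, PRX5, PRX62 and PRX53. Probe sets for 8 of the 10 were in the table of 21430 probe sets, and PRX33 (AT3G49110) and PRX34 (AT3G49120), the peroxidases best known for the apoplastic oxidative burst, were not analysed here. The family as a whole has 73 listed loci, of which 60 had a probe set, so 52 other members served as the comparison.

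The treated seedlings were wild-type Columbia-0 plants, 7 days old, that spent 24 h with 10 mM H2O2. Mock seedlings of the same accession and age received the same volume of water for 24 h. Both groups were grown in liquid half-strength Murashige and Skoog medium with sucrose in multiwell plates. Each group had 3 replicates, and every replicate, a pool of several plants, had an Affymetrix array to itself. Whether the pools stem from separate cultures is not in the labels, and the p-values therefore cover the spread among these pools alone, part of which may be technical.

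Values are log2 GCRMA values, deposited by the authors, and a difference of 1 on this scale is a 2-fold change. The labels give the tissue as leaf but the source as seedling. Root genes were measured in both groups: the root gene PYK10 averaged 11.96 in H2O2 and 12.02 in mock, and the endodermal gene CASP1 averaged 7.74 in H2O2 and 8.04 in mock. Since whole pools were measured, fewer cells of a type and less RNA per cell cannot be told apart in any of the values below. The array medians lay between 5.66 and 5.74, and with 6 arrays in all, precision is set by their number. The test left out probe sets whose average on the 6 arrays was below 3.79, the 30th percentile. It kept 15001 probe sets, among them 6 of the 8 measured peroxidases. PRX4 and PRX5 fell below that level, and their adjusted p-values come from the same limma fit without the filter.

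After 24 h with H2O2 the measured peroxidase genes went in both directions. PRX52 and PRX62 rose by 3.87 and 3.24 on the log2 scale, PRX71 rose by 0.39, and PRX37 and PRX64 fell by 0.50 and 0.46. PRX53 did not pass the test, with a difference of 0.14. Thus 3 of the 6 tested genes were higher and 2 lower at an adjusted p under 0.05 in limma, where 23.9% of all tested probe sets were higher and 36.5% lower (60.4% in either direction). Without the filter, 5 of the 8 measured genes were higher and 2 lower, where 45.0% of all 21430 probe sets were called and 18.2% were called higher. The median change of the 6 tested genes was 0.27, beside -0.10 for all tested probe sets. Both this median and the count of 3 include PRX52, which entered the test through its H2O2 values. Changes of at least 2-fold, as for PRX52 and PRX62, were called upward for 7.63% of tested probe sets and downward for 4.14%.

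**Figure D1:**
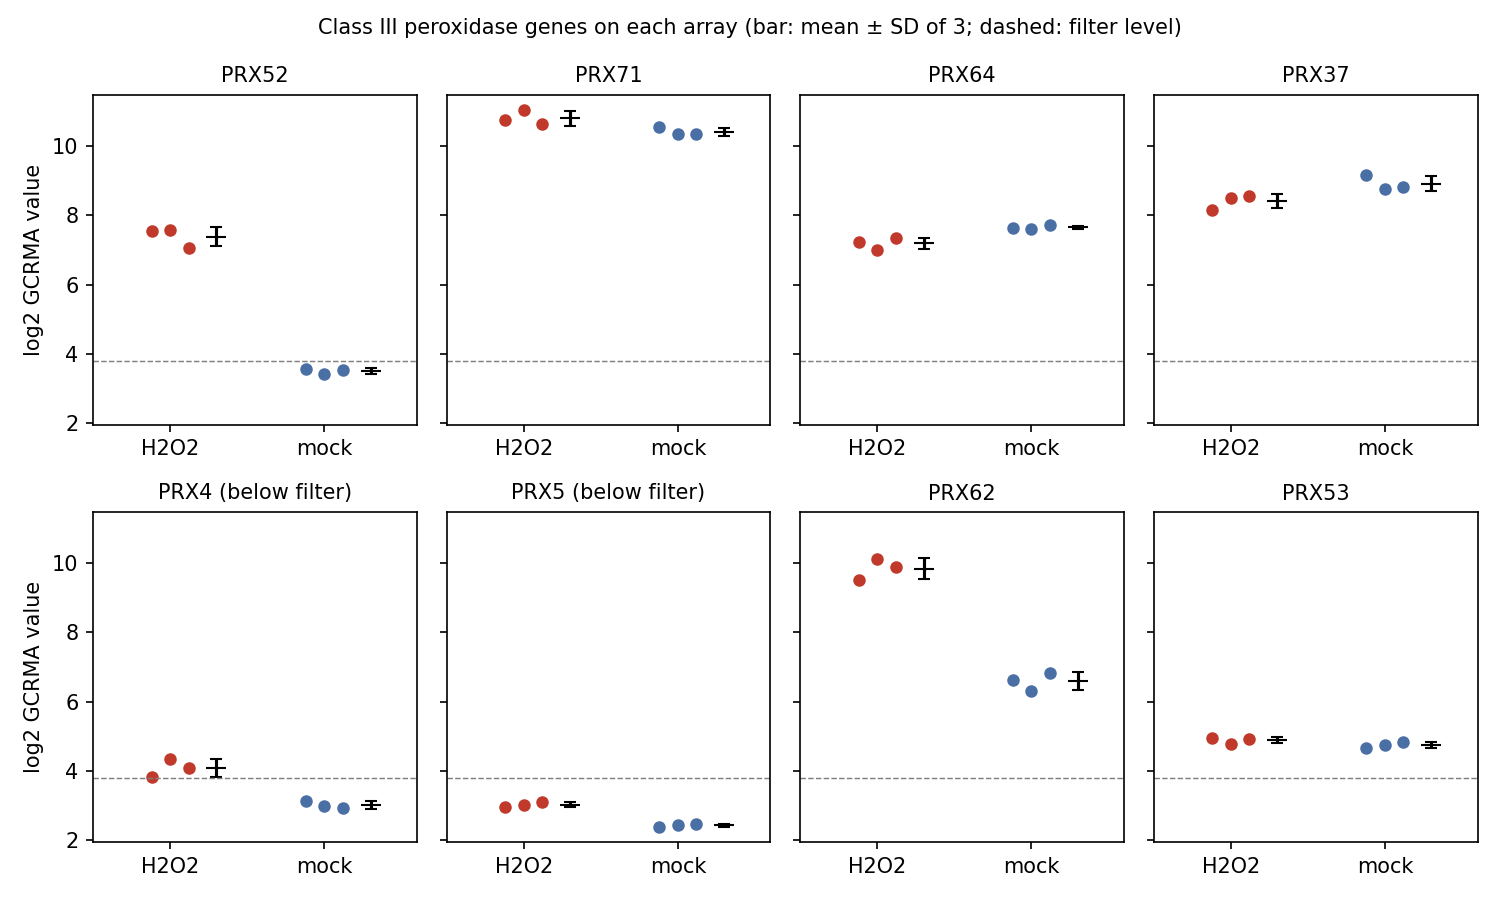
Log2 GCRMA value (vertical axis) of the 8 measured peroxidase genes on each of the 3 H2O2 arrays (left, red) and 3 mock arrays (right, blue), with the mean ± SD of each group as a black bar and the filter level of 3.79 as a dashed line. The groups stand far apart for PRX52 and PRX62, lie close but apart for PRX71, PRX64, PRX37, PRX4 and PRX5, and overlap for PRX53. Levels are not comparable between genes.

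Among the genes known for lignification and wall stiffening, PRX52 (AT5G05340) showed the largest increase. It is known for lignin synthesis in the fibres of the inflorescence stem. Its values were 7.53, 7.56 and 7.05 on the H2O2 arrays, against 3.57, 3.41 and 3.55 on the mock arrays. The groups lay far apart, with the lowest H2O2 array more than 3 log2 units above the highest mock array. PRX52 averaged 7.38 ± 0.29 in H2O2 and 3.51 ± 0.09 in mock (SD, n = 3 each), a 14.6-fold increase (log2 change 3.87, SE 0.14, limma adjusted p = 1.68e-07). All 3 mock values were below the filter level, where GCRMA values are compressed toward a floor, so the fold is uncertain. The gene entered the test through its H2O2 values. With low values raised to 3.74 before the fit, the increase was 12.5-fold.

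PRX71 (AT5G64120) is known to restrict growth and add lignin when the cell wall is disturbed. It read 10.72, 11.03 and 10.61 on the H2O2 arrays, against 10.52, 10.33 and 10.33 on the mock arrays. The groups did not overlap, but the gap between the lowest H2O2 and the highest mock array was small. The gene rose 1.31-fold (log2 change 0.39, SE 0.12, 95% confidence interval 0.12 to 0.66, adjusted p = 0.019). This call ended without mock replicate 2 (adjusted p = 0.063) or mock replicate 3 (adjusted p = 0.058).

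PRX64 (AT5G42180) acts in the root endodermis, where it polymerises the lignin of the Casparian strip, the barrier that seals the space between endodermal cells. The gene had 7.22, 7.00 and 7.33 on the H2O2 arrays, against 7.63, 7.60 and 7.70 on the mock arrays. Every H2O2 array was below every mock array. PRX64 fell by 0.46 on the log2 scale (SE 0.10, adjusted p = 0.0034), a 1.38-fold decrease. PRX37 (AT4G08770) is known from plants that overproduce it, which are dwarfed, and has been linked to the cross-linking of wall phenolics. It gave 8.16, 8.49 and 8.56 in H2O2 and 9.15, 8.76 and 8.81 in mock, again without overlap. PRX37 fell by 0.50 (SE 0.14, adjusted p = 0.013), a 1.42-fold decrease.

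PRX62 (AT5G39580), known for its part in root hair growth at low temperature, was the second large riser. Its values were 9.49, 10.10 and 9.88 on the H2O2 arrays, against 6.61, 6.31 and 6.82 on the mock arrays. Both groups were well above the filter level and lay far apart. PRX62 averaged 9.82 ± 0.31 in H2O2 and 6.58 ± 0.26 in mock (SD, n = 3 each), a 9.47-fold increase (log2 change 3.24, SE 0.17, adjusted p = 1.54e-06). Over the alternative settings and arrays left out, its log2 change stayed between 3.11 and 3.41. Its increase ranked number 122 among all tested probe sets.

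PRX4 (AT1G14540), which has been linked to lignin formation in stems, and its chromosomal neighbour PRX5 (AT1G14550) were weakly measured. PRX4 had 3.83, 4.35 and 4.08 in H2O2 and 3.14, 2.99 and 2.93 in mock. PRX5 had 2.97, 3.03 and 3.11 in H2O2 and 2.39, 2.46 and 2.48 in mock. For both genes every H2O2 array was above every mock array, but the mock values of both and the H2O2 values of PRX5 were all below the filter level. In the fit without a filter PRX4 was higher by 1.07 (SE 0.13, adjusted p = 0.00016) and PRX5 by 0.59 (SE 0.08, adjusted p = 0.00027). At such levels the size of a change is uncertain, and the table holds no call of signal over background.

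PRX53 (AT5G06720), an enzyme of known crystal structure whose gene has been studied in wounding, had 4.95, 4.78 and 4.91 in H2O2 and 4.66, 4.74 and 4.83 in mock. The groups overlapped. The difference was 0.14 with a 95% confidence interval from -0.05 to 0.33 (adjusted p = 0.18), which reaches up to a 1.25-fold increase.

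Across the 8 measured genes, 5 had every H2O2 array above every mock array, 2 had every H2O2 array below, and PRX53 overlapped. Among all 21430 probe sets the groups did not overlap for 54.0%, 22.2% being separated upward and 31.8% downward.

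Several of these genes sit beside a close relative on the chromosome, which allows the change of neighbours to be compared within each array. The difference between the log2 values of neighbouring genes removes any offset of the whole array. Its size has no meaning of its own, since different probe sets bind differently, but its shift between the groups measures unequal change. In the reference gene order PRX71 lies directly beside PRX70 (AT5G64110), and PRX69 (AT5G64100) follows with only PRX70 between. PRX70 fell by 1.23 (SE 0.18, adjusted p = 0.00055) and had 4.36, 5.10 and 4.50 in H2O2, against 5.73, 6.06 and 5.86 in mock. PRX69, which acts with PRX62 in root hair growth at low temperature, fell by 1.87 (SE 0.09, adjusted p = 8.54e-07) and had 7.84, 7.81 and 7.69 in H2O2, against 9.76, 9.70 and 9.51 in mock. Both neighbours thus went down while PRX71 was higher.

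PRX71 minus PRX69 was 2.89, 3.22 and 2.92 on the H2O2 arrays and 0.77, 0.63 and 0.82 on the mock arrays, a shift of 2.27. PRX71 minus PRX70 averaged 6.13 ± 0.22 in H2O2 and 4.51 ± 0.26 in mock (SD, n = 3 each), a shift of 1.62. The pair of PRX53 and PRX54 (AT5G06730) also separated. PRX54 had 4.77, 5.43 and 4.84 in H2O2 and 3.51, 3.05 and 3.59 in mock, and rose by 1.63 (SE 0.20, adjusted p = 0.00019), whereas PRX53 did not pass. All 3 mock values of PRX54 were below the filter level, and with low values raised its rise was 1.27. PRX53 minus PRX54 averaged -0.13 ± 0.45 in H2O2 and 1.36 ± 0.29 in mock, a shift of -1.49, or -1.13 with low values raised.

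The other pairs shifted less. PRX38 (AT4G08780), the neighbour of PRX37, had overlapping groups with 5.82, 5.91 and 6.17 in H2O2 and 6.28, 5.77 and 5.90 in mock. PRX37 minus PRX38 was 2.34, 2.58 and 2.39 in H2O2 and 2.87, 3.00 and 2.91 in mock, a shift of -0.49. PRX4 minus PRX5 averaged 1.05 ± 0.24 in H2O2 and 0.58 ± 0.15 in mock, a shift of 0.47 between genes near the floor. In each of the 5 pairs the H2O2 and mock arrays did not overlap, but the same held for 60.3% of all 15852 pairs of neighbouring protein-coding genes with probe sets, so the lack of overlap says little about these pairs. The exact two-sided permutation p was 0.1 for every pair, also after adjustment over the 5 pairs. With the arrays taken as unpaired, 0.1 is the smallest p that 3 against 3 allow.

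**Figure D2:**
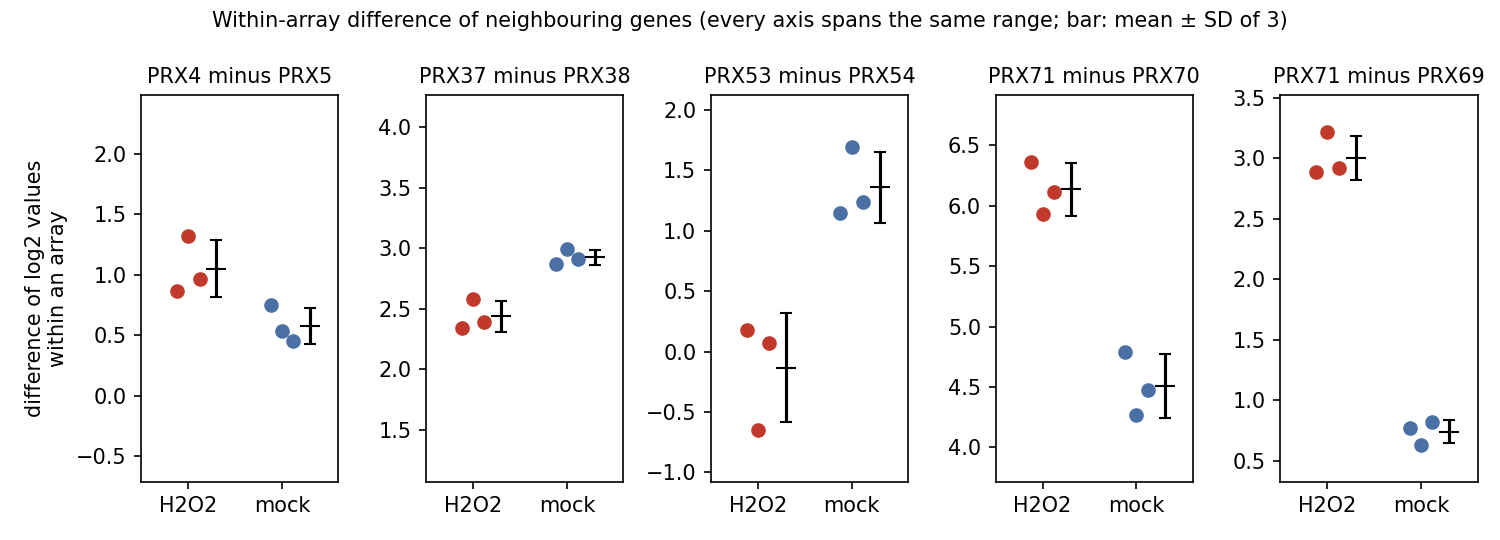
Difference between the log2 values of neighbouring peroxidase genes within each array (vertical axis, log2 units) for 5 pairs, with the 3 H2O2 arrays at left in red, the 3 mock arrays at right in blue, and mean ± SD as a black bar. All axes span the same range, so the shifts can be compared: the largest is 2.27 for PRX71 minus PRX69 and the smallest 0.47 for PRX4 minus PRX5.

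Among the 52 other class III peroxidases with a probe set, 39 passed the filter. Of these, 12 rose (30.8%) and 22 fell (56.4%), beside 23.9% and 36.5% of all tested probe sets, and their median change was -0.63 beside -0.10. At least 2-fold changes were found for 6 risers and 15 fallers of the 39, beside 7.63% upward and 4.14% downward over all tested probe sets. Of the risers 3, PRX11, PRX54 and PRX55, had every mock array below the filter level and entered the test through their H2O2 values. Of the fallers 2, PRX24 and PRX28, had every H2O2 array below it and entered through their mock values. Both count among the 15 fallers of at least 2-fold, but with low values raised their log2 changes were -0.80 and -0.68, short of 2-fold.

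The other family members with the largest increases were PRX11 (AT1G68850), PRX49 (AT4G36430), PRX67 (AT5G58390) and PRX55 (AT5G14130), besides PRX54. PRX11 averaged 6.35 ± 0.62 in H2O2 and 3.15 ± 0.26 in mock (SD, n = 3 each), 9.22-fold higher, but 6.10-fold with low values raised. PRX49 rose 7.32-fold (SE 0.11 log2) and was measured well in both groups, at 8.63 ± 0.05 in H2O2 and 5.76 ± 0.22 in mock. PRX67 and PRX55 rose by 1.75 and 1.64 on the log2 scale, PRX55 by 1.13 with low values raised. PRX52 and PRX62 thus had the largest log2 increases of the 60 measured family members, with the interval of PRX62 (2.84 to 3.64) overlapping those of PRX11 (2.57 to 3.84) and PRX49 (2.62 to 3.13).

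Among the fallers, PRX59 (AT5G19890) and PRX10 (AT1G49570) were 5.12-fold and 5.09-fold lower. They were followed by PRX44 (AT4G26010), PRX8 (AT1G34510), PRX60 (AT5G22410), PRX69, PRX35 (AT3G49960) and PRX73 (AT5G67400), with log2 changes between -2.07 and -1.70. The decreases of PRX64 and PRX37 were smaller than those of all 8 genes.

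**Figure D3:**
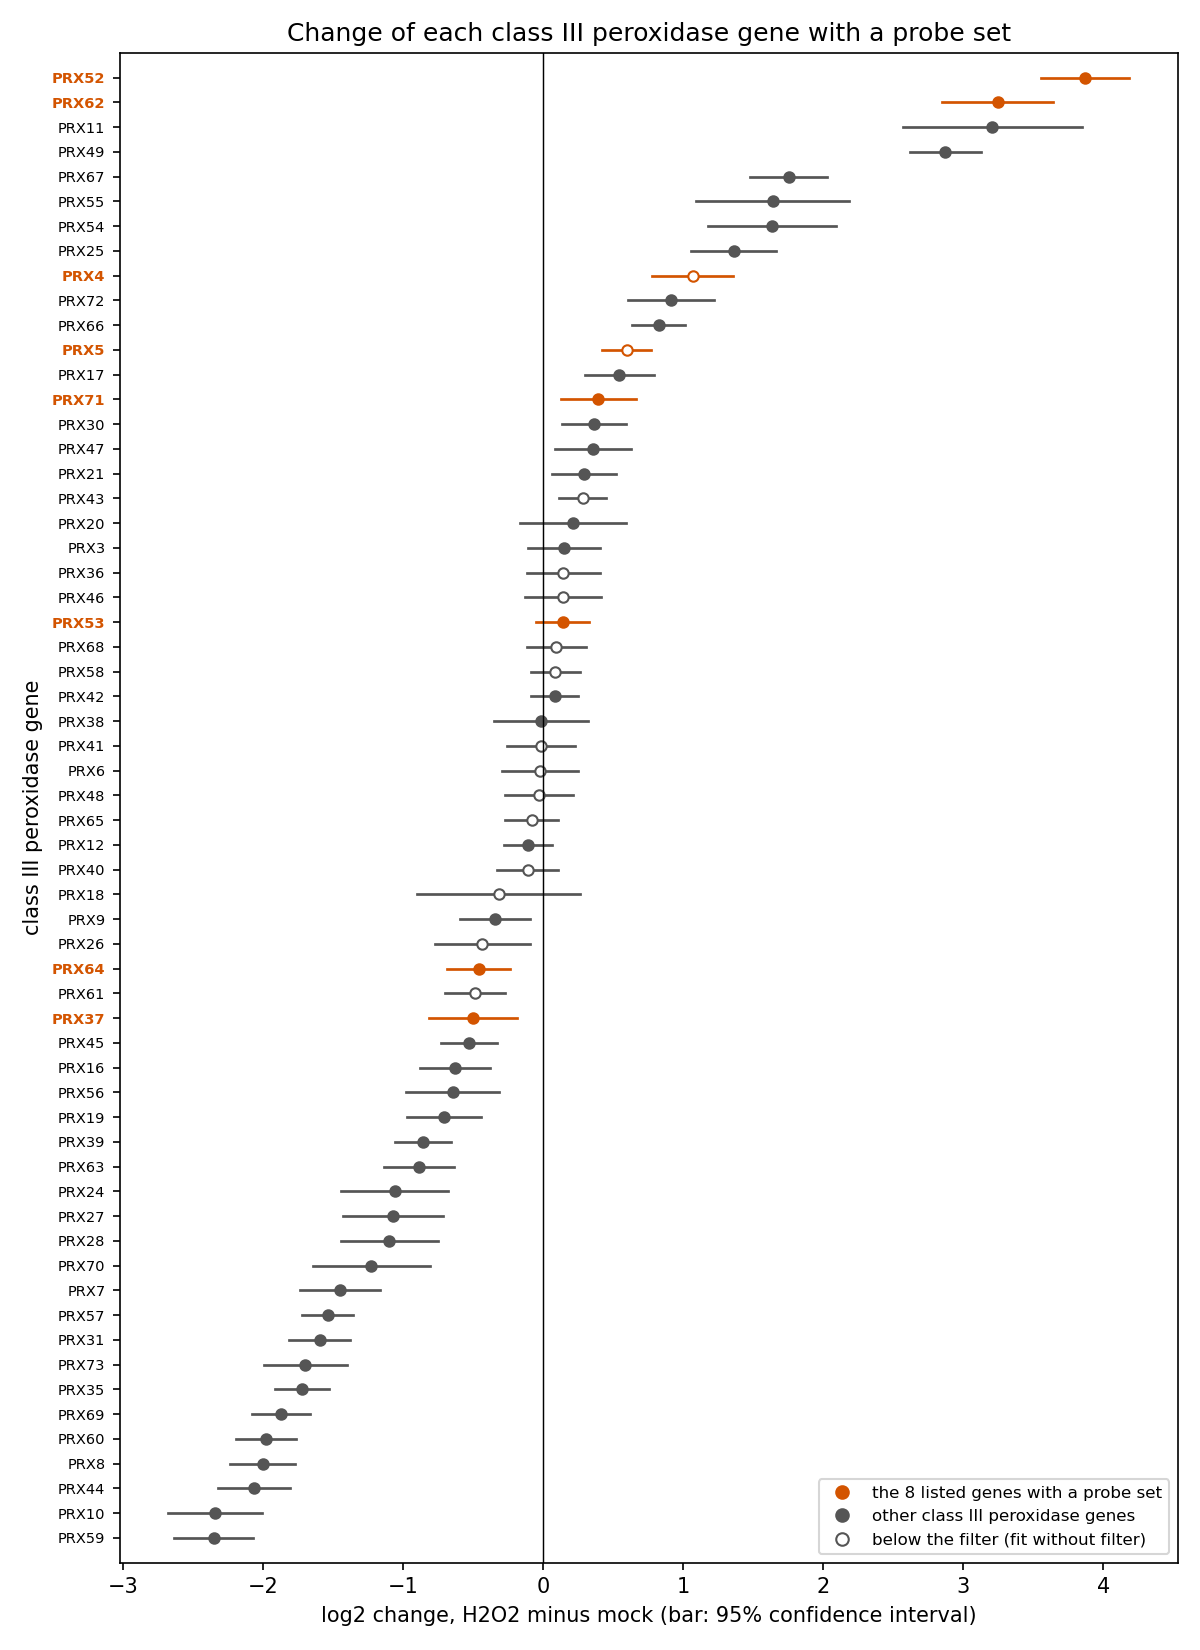
Log2 change, H2O2 minus mock (horizontal axis), of each of the 60 class III peroxidase genes with a probe set, with its 95% confidence interval as a bar. Orange marks the 8 listed genes, and open circles mark genes below the filter, fitted without it. PRX52 and PRX62 stand at the top at 3.87 and 3.24, and the bottom is held by PRX59 and PRX10, both lower by over 2 log2 units.

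The pattern over the 6 arrays, centred on each gene's mean, was compared between the listed genes and the 52 others by Euclidean distance, as a description. PRX49 was nearest to both PRX62 (distance 0.72) and PRX52 (1.29). PRX45 (AT4G30170) was nearest to both PRX64 (0.22) and PRX37 (0.31), PRX47 (AT4G33420) to PRX71 (0.20), PRX66 to PRX4 (0.48), PRX17 to PRX5 (0.29) and PRX58 to PRX53 (0.14). PRX58 was below the filter, with values from 2.55 to 2.72 on the 6 arrays. With only 2 groups the Euclidean distance mostly reflects how similar the changes are: PRX45 fell by 0.53 and PRX47 was higher by 0.35. The PRX47 call ended without mock replicate 1, 2 or 3 (adjusted p = 0.057, 0.072 and 0.066).

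Peroxidases linked to lignification were mostly higher. Of 9 listed, 8 had a probe set and 7 were tested, with 6 higher and 1, PRX64, lower (median change 0.82). Over all tested probe sets 23.9% were higher and 36.5% lower, with a median of -0.10, and PRX52 passed the filter through its H2O2 values. Besides PRX52 and PRX71, PRX25 (AT2G41480) rose 2.56-fold (SE 0.13 log2), PRX72 (AT5G66390) 1.88-fold (SE 0.13 log2), PRX66 (AT5G51890), which acts in water-conducting cells, 1.77-fold (SE 0.08 log2) and PRX17 (AT2G22420) 1.46-fold (SE 0.11 log2). Laccases are copper enzymes that oxidise monolignols with oxygen instead of H2O2. Of 17 laccase genes, 15 had a probe set and 7 were tested, of which 5 rose and 1 fell, beside the same 23.9% and 36.5%. LAC5 (AT2G40370) rose 4.37-fold, but its mock values were all below the filter level, it entered the test through its H2O2 values, and with low values raised the rise was 2.92-fold. LAC11 (AT5G03260), known for lignin formation, rose 1.92-fold, whereas LAC7 (AT3G09220) was 3.26-fold lower. LAC4 and LAC17, the laccases best known for stem lignin, were higher by 0.76 and 0.62, and LAC13 by 0.71. Markers of xylem vessels moved in the same direction: all 5 rose, where 23.9% of all tested probe sets did. The increases were, for the proteases XCP2 and XCP1, 0.71 and 0.70, and for the secondary wall cellulose synthases IRX5, IRX1 and IRX3, 0.48, 0.47 and 0.38. The IRX3 call ended without mock replicate 2 (adjusted p = 0.063). The log2 of the summed level of the 5 xylem markers ranged from 9.08 to 9.19 in H2O2 and from 8.39 to 8.59 in mock. XCP2 and XCP1 weighed most in this sum. The part of xylem cells in the changes of PRX52 and the other lignification genes was not tested. Phloem companion cell markers SUC2 and APL were also higher, by 0.74 and 0.54.

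Around the Casparian strip, genes went in both directions. Of the 5 peroxidases known to act there together, PRX64, PRX39 (AT4G11290) and PRX9 (AT1G44970) fell by 0.46, 0.86 and 0.35, PRX72 rose by 0.91, and PRX3 (AT1G05260) did not pass, with a difference of 0.14. The shares over all tested probe sets were 23.9% higher and 36.5% lower. The PRX9 call (adjusted p = 0.024) was lost with reference gene centring (0.069) and without H2O2 replicate 1 or 2 or mock replicate 1 or 2 (0.056 to 0.080). In the Casparian strip machinery, 10 of 11 genes were tested, of which 3 rose and 2 fell, beside 23.9% and 36.5% of all tested probe sets. The list's share of risers is thus near that of all genes. RBOHF, the NADPH oxidase that supplies reactive oxygen to PRX64 there, rose by 0.48 (SE 0.13, adjusted p = 0.011). The kinase gene SGN1 was higher by 0.52, a call that ended without mock replicate 2 (adjusted p = 0.051). The regulator gene MYB36 was higher by 0.29 (adjusted p = 0.048), a call lost under 9 of its 14 alternatives (adjusted p from 0.012 to 0.14), and LOTR1 fell by 0.99. Of 6 endodermis markers 5 were tested, and only CASP1 was called, lower by 0.30 (adjusted p = 0.049), a call lost under 9 of its 15 alternatives (adjusted p from 0.0095 to 0.18). The log2 of the endodermis markers' summed level ranged from 8.96 to 9.30 in H2O2 and from 9.29 to 9.40 in mock. The groups thus overlapped slightly, and CASP1 and ESB1 weighed most in this sum. The part of endodermal cells in the PRX64 change was not tested.

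Root hair peroxidases split. Of 6 listed, 5 were tested, of which PRX44, PRX60, PRX69 and PRX73 fell between 3.25-fold and 4.19-fold and PRX62 alone rose, where 36.5% of all tested probe sets fell. Root hair markers were lower as well. All 6 marker genes had every H2O2 array below every mock array, where 31.8% of all probe sets did. The 4 that passed the filter fell, where 36.5% of tested probe sets did: the proline-rich protein gene PRP3 by 2.08, the expansin EXPA7 by 1.57, the regulator RSL4 by 0.97 and COBL9 by 0.78. The log2 of the summed level of all 6 markers ranged from 7.26 to 7.65 in H2O2 and from 9.00 to 9.15 in mock. PRP3 weighed most in this sum. The part of root hair cells in the lower values of the root hair peroxidases was not tested. PRX62 rose 9.47-fold on arrays where these markers were lower. Of the 3 peroxidases under the repressor UPB1 in the root tip, PRX39 and PRX57 (AT5G17820) fell by 0.86 and 1.54, and PRX40 was below the filter with overlapping groups.

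Guard cell and leaf mesophyll markers were not higher. The guard cell genes MYB60 and FAMA fell by 2.07 and 1.08, where 36.5% of all tested probe sets fell. HT1 was below the filter, with every H2O2 array below every mock array, as for 31.8% of all probe sets. All H2O2 values of MYB60 and FAMA were below the filter level and both genes passed through their mock values, so the sizes are uncertain. With low values raised they fell by 1.91 and 0.68. Of the leaf mesophyll markers 2 of 5 had a probe set: RCA was lower by 0.29, a call lost with quantile normalization (adjusted p = 0.41), with reference gene centring (0.084) and without mock replicate 2 (0.052), and CA1 had a difference of -0.09 (adjusted p = 0.53). The root gene PYK10 had a difference of -0.05 (adjusted p = 0.60). The 8 reference genes served for centring in an alternative fit only. Of these, RHIP1 and PP2AA3 fell by 0.37 and 0.22, where 36.5% of all tested probe sets fell, and the other 6 did not pass. The PP2AA3 call was lost under 7 of its 15 alternatives (adjusted p from 0.012 to 0.18).

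**Figure D4:**
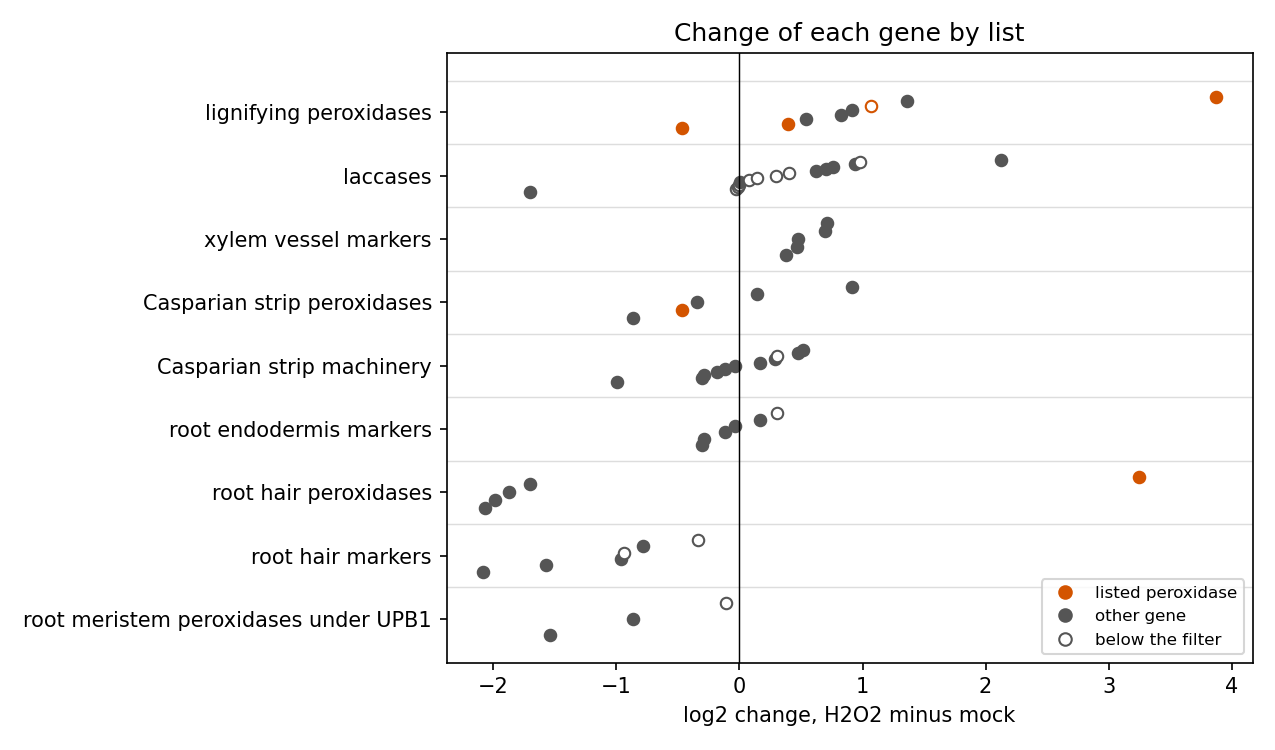
Log2 change, H2O2 minus mock (horizontal axis), of every gene with a probe set in 9 lists (rows), with 1 point per gene, the listed peroxidases in orange and genes below the filter as open circles. The lignification rows lie mostly right of 0, PRX52 farthest at 3.87, and in the root hair rows PRX62, at 3.24, is the single point right of 0.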

How the data were processed

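Transcripts were measured on 6 Affymetrix arrays, 3 H2O2 and 3 mock. The deposited values are log2 values made by the authors with GCRMA (background correction by probe sequence, normalization between arrays and summary per probe set), per the submitters' processing notes. The scale was inferred from the range of the values (1.55 to 13.2). No source used here gives the GCRMA version, the chip type or how probes were assigned to loci.

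Each probe set is named by 1 locus. No listed locus shared all its values with another. For symbols and gene order, and for no coordinates, a RefSeq gene table (assembly TAIR10.1) was used. It holds all 73 family loci, and PRX numbers follow the usual numbering of the family by locus.

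Probe sets with a mean under the 30th percentile were left out. The rest were compared, H2O2 minus mock, by lmFit and eBayes of limma 3.58.1 (R 4.3.3). P-values were adjusted by Benjamini-Hochberg over all 15001, with a threshold of 0.05. Pairs of neighbouring genes were compared by an exact permutation test with scipy 1.17.1. Figures were drawn with matplotlib 3.10.9. The fit was tested on simulated data with known changes in a small share of the probe sets. A far larger share, 60.4%, was called in the real data, so that test does not cover the adjustment under such widespread change.

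The peroxidases and all lists were chosen with earlier results of these data known. Named genes were the listed peroxidases, their neighbours, the 8 other family members with the largest increase and decrease each, up to 3 genes per list with the largest change among those that passed, and the nearest family member by distance. Other genes (LAC4, LAC13, LAC17, MYB36, IRX1, IRX3, COBL9, HT1, CA1, PRX3, PRX9, PRX24, PRX28, PRX40) were named to complete a list or count after their values were seen.

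Replicate numbers are shared between the groups. Deviations from the group means of same-numbered arrays correlated at 0.19, 0.21 and 0.21 across tested probe sets. Between differently numbered arrays of the 2 groups the correlations ran from -0.17 to -0.039. A pairing by number is thus possible and was fitted as an alternative. The labels give no reason for a pairing, and the main fit and the permutation tests took the arrays as unpaired. Alternatives were the replicate number as a block, other filters, raised low values, quantile normalization, median and reference gene centring, a trended and robust prior, array weights, and each array left out. Raised low values for the pairs were added after the data were seen.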

Additional observations from a re-analysis of the deposited data

How the results depend on the processing

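With the replicate number as a block, the counts were 3 listed peroxidases higher and 2 lower, and 12 other family members higher and 22 lower, as without it, and no call of a named gene changed. Without a filter, 5 listed peroxidases were higher, since PRX4 and PRX5 entered. With the filter at the 50th percentile, fewer family members were tested (23 others), of which 7 were higher and 12 lower. Leaving out each array in turn gave 2 to 3 listed peroxidases higher and 2 lower, 9 to 12 others higher and 21 to 22 lower. Reference gene centring shifted the median change of all tested probe sets by 0.08. The changes of PRX52, PRX62, PRX37 and PRX64 kept their direction and their call under all alternatives in which they were tested. PRX52 did not pass the filter at the 50th percentile. There 4 listed peroxidases were tested, of which 2 were higher and 2 lower. The difference of PRX38, not called, turned to 0.067 with reference gene centring and ranged from -0.12 to 0.13 without each array in turn. That of PYK10, not called, turned to 0.036 under quantile normalization and to 0.031 when centred on the reference genes, and ranged from -0.096 to 0.0067 without each array in turn. That of CA1, not called, ranged from -0.16 to 0.027 in the same way. The cause was not tested. Without each array in turn the shift of PRX71 minus PRX69 ranged from 2.16 to 2.33. Raising low values, an alternative chosen after seeing the data for these pairs, gave a shift of 0.34 for PRX4 minus PRX5. All PRX5 values and all mock values of PRX4 were then set to the same floor. This shift thus holds only the H2O2 values of PRX4 above the floor and cannot compare the change of the 2 genes. The number of arrays and the low signal of PRX4 and PRX5 limit what can be said.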
